A study of Mus musculus with 35 samples.

Results

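Pkm2 is the mouse pyruvate kinase gene that current annotations call Pkm. Here it stands for 1 of the 37310 genes of the GENCODE vM1 annotation (ENSMUSG00000032294.9, mm9 chr9:59504383-59527182, plus strand, 22800 nt), and its members are all tags on its own strand. The gene was picked because one stretch at the end of exon 8 and the start of intron 8 (chr9:59519798-59520224) held no NXF1 tag in 3 libraries and many SR protein tags. The contrast between NXF1 and the SR proteins is therefore given as values only, without a test.

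The tags come from individual-nucleotide cross-linking and immunoprecipitation (iCLIP), in which ultraviolet light of 254 nm links proteins to bound RNA inside cells, an antibody enriches 1 tagged protein with its RNA, and the place where reverse transcription stops marks the linked base. The cells were mouse P19 embryonal carcinoma cells, a pluripotent line, in which a GFP-tagged protein was expressed from a bacterial artificial chromosome, so each line also kept its untagged protein. SRSF3, SRSF4, SRSF6 and NXF1 each had 3 libraries, SRSF1 and SRSF5 had 4, SRSF2 had 5 and SRSF7 had 6, which makes 28 SR protein libraries and 31 in all. GFP joined to a nuclear localization signal (GFP-NLS) was the control, with 4 samples that share 1 summed table. All lines received the same ultraviolet light and the same anti-GFP antibody.

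Pyruvate kinase carries out the last step of glycolysis, the transfer of phosphate from phosphoenolpyruvate to ADP. Its RNA is a textbook case of mutually exclusive splicing: exon 9 gives the M1 form of muscle and neurons, exon 10 gives the M2 form of embryonic and tumour cells, and a transcript normally keeps one of them. The hnRNP A1, hnRNP A2 and PTB proteins are known to hold exon 9 back, and SRSF3 is known to favour exon 10. SR proteins bind RNA through RNA recognition motifs and help define exons, and NXF1 is the main receptor that carries mRNA out of the nucleus.

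Exons 9 and 10 are printed first because the gene is known for the choice between them. They have the same length of 167 nt, and 103 of these bases (61.7%) were identical when both were aligned without gaps. Exon 9 (chr9:59522836-59523002) is part of transcript Pkm2-202 and exon 10 (chr9:59523375-59523541) of transcript Pkm2-201. Both are on the plus strand of mm9, 5′ to 3′, and capitals mark the bases that carried a tag in at least 5 of the 31 libraries.
exon 9: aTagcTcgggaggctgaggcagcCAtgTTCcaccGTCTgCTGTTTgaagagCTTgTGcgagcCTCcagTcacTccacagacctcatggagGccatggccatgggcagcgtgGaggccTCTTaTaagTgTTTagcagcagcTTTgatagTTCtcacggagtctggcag
exon 10: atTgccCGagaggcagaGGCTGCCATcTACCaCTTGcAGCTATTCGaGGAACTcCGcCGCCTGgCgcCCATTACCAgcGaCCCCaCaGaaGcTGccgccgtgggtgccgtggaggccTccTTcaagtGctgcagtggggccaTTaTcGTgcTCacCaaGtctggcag
Capitals cover 44 bases of exon 9 and 76 bases of exon 10. Of the 1484 tags of exon 10, 1167 fell within its first 100 nt.

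The next sequences come from the 2 tested regions that lie in introns alone, both with most of their tags in SRSF3 libraries. The first lies in intron 1 (chr9:59504720-59505019, plus strand, 300 nt) and the second in intron 8 (chr9:59521594-59521842, plus strand, 249 nt). Capitals mark each match to CNTC, the pyrimidine-rich motif known for SRSF3, on the sense strand.
intron 1 stretch: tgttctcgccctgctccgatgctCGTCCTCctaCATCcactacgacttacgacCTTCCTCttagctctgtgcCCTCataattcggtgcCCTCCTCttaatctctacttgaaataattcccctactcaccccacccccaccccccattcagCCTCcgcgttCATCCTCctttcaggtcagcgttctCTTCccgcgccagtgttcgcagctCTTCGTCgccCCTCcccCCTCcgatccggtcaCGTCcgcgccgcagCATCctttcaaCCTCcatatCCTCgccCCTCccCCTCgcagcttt
intron 8 stretch: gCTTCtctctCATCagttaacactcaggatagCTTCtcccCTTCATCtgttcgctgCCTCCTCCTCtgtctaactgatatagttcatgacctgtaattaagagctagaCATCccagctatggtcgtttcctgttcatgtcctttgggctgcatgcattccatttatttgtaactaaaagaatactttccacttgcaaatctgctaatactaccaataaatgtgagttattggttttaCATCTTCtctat
The intron 1 stretch was cut from a region of 540 nt as the 300 nt with the most SRSF3 tags, which raises its SRSF3 share. It holds 22 overlapping or separate matches and carried 954 tags, of which 742 came from SRSF3 libraries. The whole region held 1645 tags, with 209, 501 and 389 in the SRSF3 libraries. The intron 8 stretch holds 11 matches and carried 323 tags, of which 268 came from SRSF3 libraries.

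Single bases with many tags were mostly thymines of the exons. The 3 shown are the most tagged bases of the gene, of exon 6 and of exon 12, each as the capital in the middle of 21 nt on the plus strand.
exon 2, chr9:59513001-59513021: acccaggactTcaggaaccat
exon 6, chr9:59518432-59518452: gcatctttcaTccgcaaggca
exon 12, chr9:59527089-59527109: acactccactCtccaccttgt
The exon 2 base, 5 nt into the exon, held 196 tags in 16 libraries, all of SR proteins. The exon 6 base held 101 tags in 12 libraries, likewise all of SR proteins. The exon 12 base lies in the 3′ untranslated region, 83 nt before the end of the gene, and held 99 tags in 17 libraries, among them all 3 NXF1 libraries.

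Across the series the libraries differed greatly in size, from 13038 to 4459523 listed tags with a median of 237488. The deposited tables list only positions that passed the authors' own filter in that library, so a value of 0 means not listed, and the total is not the sequencing depth. The libraries labelled SRSF2 replicates 2 and 5 carry file headers that name SRSF1. They stay in their labelled group. Tests were also run without them where at least 2 SRSF2 libraries were left. Descriptive SRSF2 means, such as those of motifs, bases and untested regions, include them. The header years split the proteins, with SRSF2, SRSF5, SRSF6 and SRSF7 replicates 1 to 3 in 2013 and the rest in 2014, so proteins of different years cannot be told apart from the year, except through SRSF7. All 10 markers of pluripotent cells were named in the annotation. Dnmt3b (629 ± 369 CPM, SD, n = 28 SR libraries), Lin28a (242 ± 317 CPM) and Pou5f1 (72.7 ± 80.5 CPM) were among those with many tags, while Nanog was low (5.19 ± 8.70 CPM). Medians were also low for Sall4 (2.13 CPM), Utf1 (6.54 CPM), Tdgf1 (6.79 CPM) and Sox2 (14.9 CPM), each listed in 14 to 17 of the 28 SR libraries. CPM are tags scaled to a library total of 1000000 listed tags. Of the 9 markers tested, Utf1 was called lower for SRSF1 and, with Tdgf1, higher for SRSF3, L1td1 was called lower for SRSF5, and Sox2 and L1td1 were called higher for SRSF6, by the limma contrasts described with the gene's level. Over all genes tested, 1.43% were called lower for SRSF1, 8.56% higher for SRSF3, 20.5% lower for SRSF5 and 4.2% higher for SRSF6. The Utf1 and Tdgf1 calls were kept under 3 other scalings, and those of L1td1 and Sox2 under none.

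In all, 25272 tags lay on Pkm2, 25025 of them in SR protein libraries and 247 in NXF1 libraries. A tag was listed in 29 of the 31 libraries and in 26 of the 28 SR libraries, and none lay on the opposite strand. The 2 libraries without a tag were SRSF1 replicate 4 and SRSF2 replicate 3, with 14900 and 29680 listed tags. The control table held 0 Pkm2 tags among 21880, which allows up to 137 CPM by counting error alone, so the control cannot show a level below that. Tags were spread over 4132 positions, of which 1501 were listed in 1 library only, 998 in at least 5 libraries and 234 in at least 10.

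The level of Pkm2 was highest in the SRSF3 libraries, at 1825, 1382 and 1043 CPM. SRSF6 libraries followed at 1207, 1358 and 765 CPM. NXF1 libraries held 387, 648 and 589 CPM. Thus SRSF3 and SRSF6 overlapped each other, and every SRSF3 library lay above every NXF1 library.

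SRSF1 libraries held 1146, 906, 506 and 0 CPM. SRSF2 libraries held 62.2, 1498, 0, 979 and 1193 CPM, of which 1498 and 1193 belong to the libraries labelled SRSF2 replicates 2 and 5. Without these, the SRSF2 values ran from 0 to 979. SRSF1 and SRSF2 libraries overlapped those of every other protein.

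SRSF4 libraries held 240, 1058 and 659 CPM. SRSF5 libraries held 337, 971, 317 and 748 CPM. The 6 SRSF7 libraries ran from 146 to 745 CPM with a median of 293. Replicates 1, 2, 3 and 5 held only 2, 8, 7 and 7 Pkm2 tags, whereas replicates 4 and 6 stood at 743 and 745 CPM. The place of SRSF7 in the order below rests on the libraries with few tags. Ordered by mean, the level fell from SRSF3 (1417 ± 392, SD, n = 3) through SRSF6 (1110 ± 308, n = 3), SRSF2 (747 ± 679, n = 5), SRSF4 (653 ± 409, n = 3), SRSF1 (639 ± 501, n = 4), SRSF5 (593 ± 321, n = 4) and NXF1 (541 ± 137, n = 3) to SRSF7 (396 ± 289, n = 6). Each neighbour in this order differed from the next by less than the larger of their SDs. A tag level mixes how much of the RNA a cell holds with how much of it is touched, and fewer cells with the RNA and less RNA per cell cannot be told apart here.

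**Figure D1:**
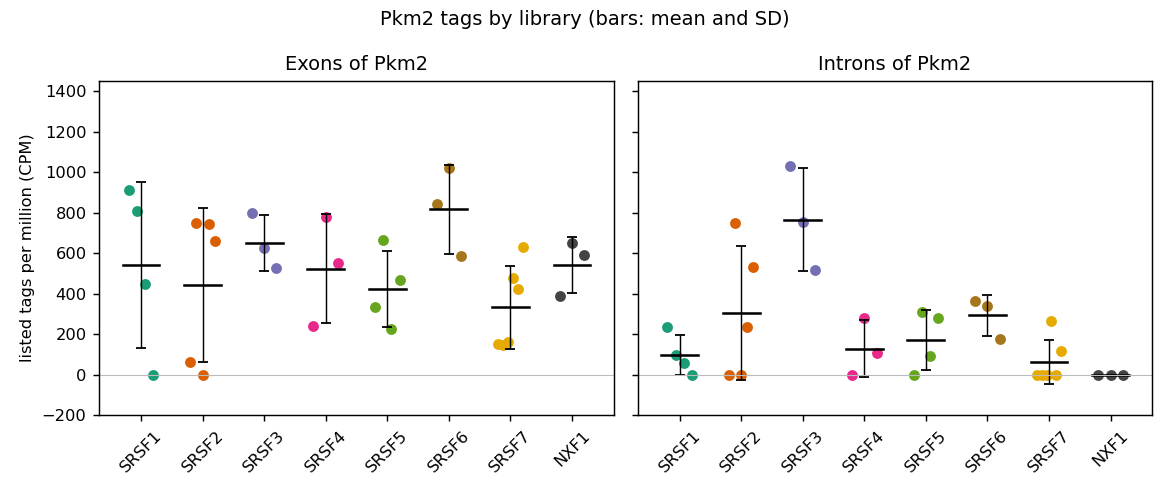
Pkm2 tags in CPM (y axis) in exons (left panel) and introns (right panel) of each of the 31 libraries, grouped by tagged protein (x axis). Points are libraries, horizontal bars are group means and error bars are SDs, some of which reach below 0. In introns the SRSF3 libraries sit at 1029, 754 and 516 CPM and the 3 NXF1 libraries at 0, whereas in exons the SRSF3 and NXF1 libraries overlap.

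The question of whether any SR protein held more or fewer Pkm2 tags than the other 6 was put to limma voom across 6027 genes, with Benjamini-Hochberg adjustment within each contrast. Pkm2 was not called in any of the 7 contrasts. For SRSF3 it was higher by 1.56 ± 0.89 (log2, SE), with an adjusted p of 0.237 from limma, while the median gene of that contrast was at 0.80. For SRSF6 it was 1.15 ± 0.89 (adjusted p = 0.356) against a median gene of 1.04, and for SRSF2 it was -1.10 ± 0.75 (adjusted p = 0.763) against 0.09. With both libraries whose headers name SRSF1 left out, the SRSF2 value was -2.66 ± 0.84 (adjusted p = 0.179). The values for SRSF1 (-0.90 ± 0.82, adjusted p = 0.581) and SRSF7 (-0.81 ± 0.68, adjusted p = 0.573) were negative as well. SRSF4 (0.09 ± 0.94, adjusted p = 0.980) and SRSF5 (0.00 ± 0.84, adjusted p = 0.99998) lay at 0 within their SE, the latter against a median gene of -1.28.

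As background, the share of all genes called higher and lower was 1.14% and 1.43% for SRSF1, 0.166% and 0.299% for SRSF2, and 8.56% and 2.27% for SRSF3. It was 0.382% and 0.0332% for SRSF4, 1.64% and 20.5% for SRSF5, 4.2% and 0.68% for SRSF6, and 2.52% and 0.465% for SRSF7. The balance of higher and lower calls over all genes moved with the scaling. Calls went from 99 higher and 1234 lower to 130 and 85 with trimmed-mean scaling for SRSF5, from 253 and 41 to 27 and 50 for SRSF6, from 152 and 28 to 25 and 37 for SRSF7, from 516 and 137 to 190 and 152 for SRSF3 and from 23 and 2 to 46 and 27 for SRSF4. Pkm2 was not called under any of these scalings.

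Tags did not fall evenly along the gene. Per kb of sequence, averaged over the 28 SR libraries, exon 1 held the most (655 CPM per kb), followed by exon 2 (312), exon 10 (266), exon 8 (255) and exon 7 (224). Exon 9 held 133 CPM per kb. Among introns, the short intron 9 between the exclusive exons held 90.9 CPM per kb, intron 8 held 24.96, intron 10 held 24.1 and the long intron 1 held 7.1. Intron 11 held no tag in any library, although it separates the last 2 exons and is longer than intron 9.

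By mean density, the proteins differed in the exons they touched most, which was not tested. SRSF1 had its highest means in exons 6 (387 ± 258 CPM per kb, SD, n = 4), 8 (383 ± 274) and 1 (349 ± 262), with replicate 4 at 0. Those of SRSF6 were in exons 2 (581 ± 105, n = 3), 6 (542 ± 185) and 1 (469 ± 110.5). SRSF3 had the highest means in exons 1 (1104 ± 507, n = 3) and 2 (785 ± 282) but held only 104 ± 18.3 CPM per kb in exon 6. In exon 1 the highest SRSF5 library (2317 CPM per kb) and SRSF7 library (2213) lay above every SRSF3 library. NXF1 had its highest densities in exon 12 (425 CPM per kb) and exon 6 (409), and held no tag in exon 4 or exon 9.

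**Figure D2:**
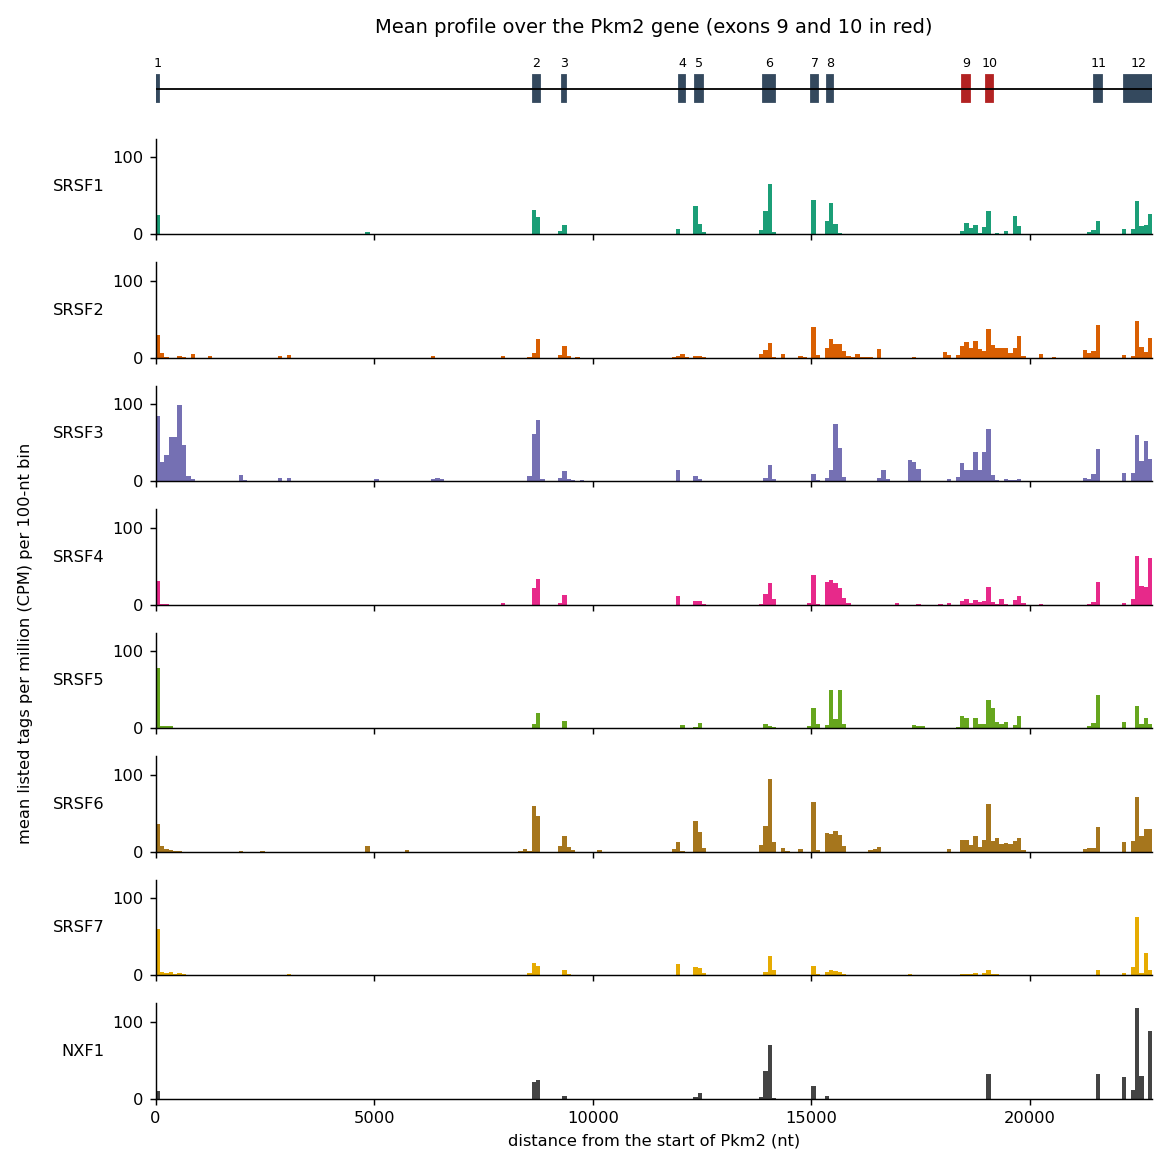
Mean CPM of each protein in bins along Pkm2 (y axis, 1 panel per protein), by distance from the start of the gene in nt (x axis), with exons drawn as boxes on top and exons 9 and 10 in red. SRSF3 stands above the other proteins at the start of intron 1, where its libraries held 272 to 577 CPM over the intron, and NXF1 shows bars at exons alone.

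All 247 NXF1 tags lay in exons. The NXF1 libraries held 92, 91 and 64 Pkm2 tags, of which 0, 0 and 0 were intronic. Of the 163 positions they listed, 161 (98.8%) were also listed for an SR protein, whereas these made up 3.90% of the 4130 positions of SR proteins. The 3′ untranslated region took 46.7%, 53.8% and 35.9% of the NXF1 tags. Among the 21 SR libraries with at least 20 Pkm2 tags this share ran lower, from 0% in SRSF5 replicate 3 to 32.4% in SRSF4 replicate 3. These NXF1 values belong to the contrast that chose the gene. The NXF1 libraries had 237488, 140361 and 108708 listed tags, and SR libraries of like or smaller size ranged widely: SRSF4 replicate 1 and SRSF5 replicate 1 held 0% of Pkm2 tags in introns, SRSF1 replicates 2 and 3 held 10.8% and 11.4%, SRSF4 replicate 3 held 16.2%, SRSF2 replicate 4 held 23.9% and SRSF5 replicate 3 held 29.2%. The part of library size in the NXF1 value was not tested.

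SRSF3 was the SR protein with the largest intronic share. In its 3 libraries 56.4%, 54.6% and 49.5% of Pkm2 tags were in introns, against a mean of 24.0% ± 13.7 (SD, n = 18) in the other SR libraries with at least 20 tags. Only SRSF2 replicate 2 (49.9%) reached into the SRSF3 range. The difference of 29.5 percentage points had p = 0.00150 in a two-sided exact permutation test, and an adjusted p of 0.0105 over the 7 proteins compared. Leaving out both libraries whose headers name SRSF1 gave 32.4 points (exact permutation test, adjusted p = 0.00619), and 22.5 points among libraries with at least 400000 tags (exact permutation test, adjusted p = 0.0275). Among libraries of the later run year alone, SRSF3 stood 36.4 points above the other 8 (exact permutation test, adjusted p = 0.0242 over 4 proteins). Without SRSF3 replicate 1 or 2 it was 28.05 or 28.94 points, and the adjusted p of the exact permutation test rose to 0.111.

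The other proteins were not told apart by this share. SRSF2 libraries with enough tags held 49.9%, 23.9% and 44.5%, and SRSF5 libraries 0%, 31.6%, 29.2% and 37.3%. SRSF6 libraries held 30.3%, 24.9% and 23.3%, and SRSF1 libraries 20.6%, 10.8% and 11.4%. SRSF4 libraries held 0%, 26.4% and 16.2%, and SRSF7 replicates 4 and 6 held 36.0% and 15.5%. For these 6 proteins the adjusted p of the exact permutation test ran from 0.282 to 0.828.

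**Figure D3:**
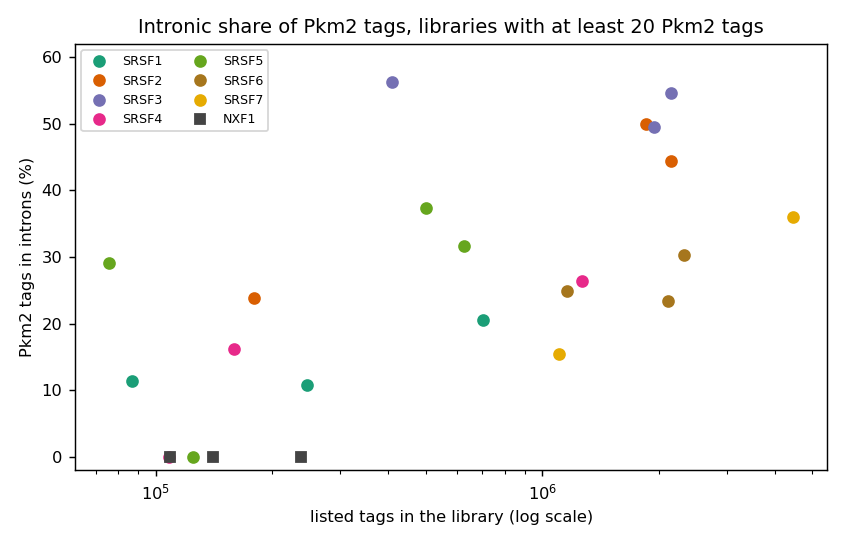
Share of Pkm2 tags in introns, in percent (y axis), against the listed tags of the library on a log axis (x axis), for libraries with at least 20 Pkm2 tags. Each point is a library. The 3 SRSF3 libraries lie between 49.5% and 56.4%, and the 3 NXF1 libraries lie at 0% beside SR libraries of similar size at 0% to 23.9%, with SRSF4 replicate 1 hidden under an NXF1 point.

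Intron 1 set SRSF3 apart most. Its tags reached 577, 307 and 272 CPM in the SRSF3 libraries, whereas the highest of the other 25 SR libraries was SRSF7 replicate 4 at 102 CPM. NXF1 had none. Much of this came from one region that starts 78 nt after exon 1 (chr9:59504534-59505073), in which SRSF3 libraries held 511, 233 and 200 CPM. In that region SRSF7 replicates 4 and 6 held 66.6 and 35.4 CPM, SRSF6 libraries 24.5, 10.4 and 8.03 CPM, and all 4 SRSF1 libraries none.

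Regions here are the authors' clusters of tags, joined over the 8 proteins where they overlapped or lay within 30 nt. Of 65 such regions on Pkm2, 47 lay in introns only and 3 held no tag in the single libraries, and 13 had enough tags to be tested among 6649 regions in all. The intron 1 region entered the fit through the 3 SRSF3 libraries and 1 SRSF7 library alone and would not have passed the filter without SRSF3. Its fitted difference of 4.92 ± 0.62 (log2, SE, adjusted p = 1.33e-06 from limma) is therefore a description, with all 3 SRSF3 libraries above the other 25. It was also called lower in SRSF1 (adjusted p = 0.00206 from limma), for which no fold is given because every SRSF1 library is at 0. SRSF1 was not alone in this, as SRSF4 libraries held 0, 8 and 0 tags there and SRSF5 libraries 0, 8, 0 and 11. With the entry set by SRSF3, the SRSF1 call too is a description. That call was lost without SRSF1 replicate 1 (adjusted p = 0.127).

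The second intronic region of SRSF3 starts 1714 nt after exon 8 (chr9:59521594-59521842) and is the printed intron 8 stretch. SRSF3 libraries held 83.1, 68.8 and 44.1 CPM there. The next highest library was SRSF5 replicate 4 at 25.9 CPM, and SRSF1, SRSF6 and NXF1 libraries held none. This region passed the filter only because the 3 SRSF3 libraries reached it, so it had to differ, and its fitted difference of 4.96 ± 0.77 (log2, SE, adjusted p = 1.68e-05 from limma) is a description.

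Counting all tested regions of Pkm2, SRSF3 was higher in 3 and lower in 3, and SRSF1 higher in 2 and lower in 1. SRSF6 was higher in 2 and lower in 0, and SRSF5 higher in 0 and lower in 1. The higher SRSF3 regions of introns 1 and 8 entered the fit through SRSF3 libraries. The lower SRSF1 region is that same region of intron 1. No region was called for SRSF2, SRSF4 or SRSF7. The background over all 6649 regions was 18.5% higher and 19.9% lower for SRSF3, 10.4% and 6.83% for SRSF1, 19% and 5.14% for SRSF6, and 10.4% and 23% for SRSF5. It was 1.65% and 5.2% for SRSF2, 9.2% and 0.887% for SRSF4, and 7.28% and 4.48% for SRSF7. Out of 13 regions, these counts lie near or below what the background shares give.

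**Figure D4:**
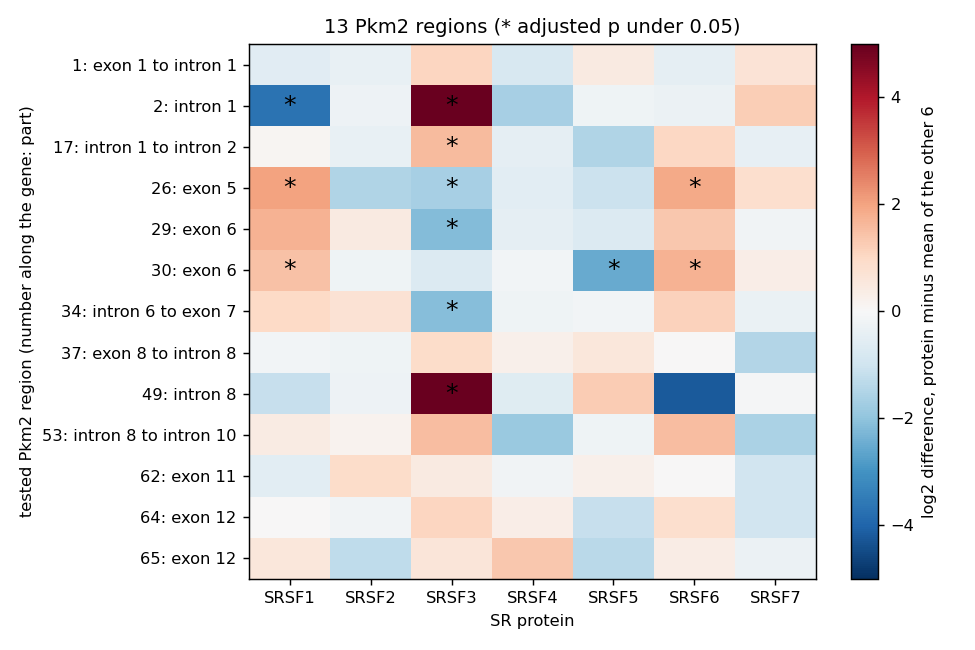
Difference of each SR protein from the mean of the other 6 (log2, colour scale) in the 13 tested regions of Pkm2, numbered along the gene (rows), for the 7 SR proteins (columns). Stars mark an adjusted p under 0.05 from limma. The darkest red cells are SRSF3 in intron 1 (4.92) and intron 8 (4.96), and the dark blue cells of SRSF1 in intron 1 and SRSF6 in intron 8 stand for groups with no tag, whose fitted values are not folds.

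The remaining called regions lay in or at exons. Apart from that of exon 2, they were chosen for mention after their values were seen. Exon 2 with its borders (chr9:59512909-59513217) held 203, 130 and 118 CPM in SRSF3, and up to 121 CPM elsewhere, so the groups overlapped. SRSF3 was higher by 1.60 ± 0.64 (adjusted p = 0.0476 from limma), a call kept in 15 of 28 fits that each left out 1 library and in 5 of 9 other alternatives.

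The first part of exon 5 (chr9:59516720-59516805) held 76.8, 44.7, 69.0 and 0 CPM in SRSF1, 52.9, 80.5 and 44.8 CPM in SRSF6 and 0, 12.1 and 15.9 CPM in SRSF3. SRSF1 was higher by 2.02 ± 0.58 (adjusted p = 0.0160), SRSF6 higher by 1.91 ± 0.61 (adjusted p = 0.0208) and SRSF3 lower, at -1.66 ± 0.62 (adjusted p = 0.0323), all from limma. The region entered the fit through 3 SRSF1 libraries, 3 SRSF6 libraries and 1 SRSF7 library, and through no SRSF3 library. That entry favours high SRSF1 and SRSF6 values and a low SRSF3 value. Of 9 alternatives, the SRSF1 call was kept in 4, the SRSF6 call in 7 and the SRSF3 call in 3. The SRSF3 call was also lost without any 1 SRSF3 library, without SRSF4 replicate 2 and with a replicate block (adjusted p = 0.201 from limma). Leaving out any 1 SRSF6 library lost the SRSF6 call, and leaving out SRSF1 replicate 1 or 3 lost the SRSF1 call. Apart from SRSF1 replicate 4, which had no Pkm2 tag at all, the SRSF1 and SRSF6 libraries lay above the SRSF3 libraries.

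Exon 6 had 2 regions. The larger (chr9:59518387-59518543) held 98.1, 85.3, 92.0 and 0 CPM in SRSF1, 107, 141 and 71.3 CPM in SRSF6, and 0, 7.96, 0 and 7.97 CPM in SRSF5. SRSF6 was higher by 1.76 ± 0.52 (adjusted p = 0.0121), SRSF1 higher by 1.46 ± 0.49 (adjusted p = 0.0367) and SRSF5 lower, at -2.53 ± 0.55 (adjusted p = 0.00136), all from limma. The SRSF6 and SRSF5 libraries did not overlap there. Of 9 alternatives, the SRSF6 and SRSF5 calls were kept in 7 each and the SRSF1 call in 2. The SRSF1 value of 1.51 ± 0.53 without SRSF2 replicates 2 and 5 did not pass. Leaving out SRSF6 replicate 1 or 2 lost the SRSF6 call. Leaving out SRSF1 replicate 1, 2 or 3 or SRSF6 replicate 3 lost the SRSF1 call. The SRSF5 call was kept in all 28 fits that each left out 1 library. In the smaller region at the start of exon 6 (chr9:59518274-59518332), SRSF3 held 2.44, 5.57 and 4.62 CPM against a mean of 17.9 CPM in the other SR libraries, a difference of -2.17 ± 0.69 (adjusted p = 0.0127 from limma). The border of intron 6 and exon 7 (chr9:59519337-59519437) held 12.2, 6.04 and 8.72 CPM in SRSF3 against a mean of 35.0 CPM, a difference of -2.13 ± 0.64 (adjusted p = 0.00915 from limma).

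Both SRSF3 calls, at the start of exon 6 and at exon 7, were kept in 6 of 9 alternatives. Neither region entered the fit through an SRSF3 library, and that entry favours a low SRSF3 value. In both, some libraries of the other SR proteins held 0 CPM, so the groups overlapped. Leaving out any 1 SRSF3 library lost the call at the start of exon 6. Without SRSF3 replicate 2 the call at exon 7 was lost. With trimmed-mean or median-ratio scaling, SRSF3 had no lower region of Pkm2, and SRSF1 had no higher one. Those scalings also moved the whole table: for SRSF3 the calls over all regions went from 1227 higher and 1326 lower to 1418 and 531 with trimmed-mean scaling. For SRSF1 they went from 689 and 454 to 146 and 209, and for SRSF7 from 484 and 298 to 111 and 195. With totals of protein-coding genes they went from 690 and 1528 to 1590 and 1079 for SRSF5, and from 1264 and 342 to 829 and 765 for SRSF6.

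The block from the end of intron 8 through exons 9 and 10 into intron 10 formed a single region (chr9:59522729-59524208) and held the most tags of any region of the gene, 5611. SRSF1 libraries held 269, 166, 57.5 and 0 CPM there. SRSF2 libraries held 0, 543, 0, 184 and 439 CPM, and SRSF3 libraries 279, 278 and 155 CPM. The tallest values were thus those of the libraries labelled SRSF2 replicates 2 and 5.

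SRSF4 libraries held 0, 230 and 25.1 CPM in the block, and SRSF5 libraries 104, 366, 0 and 181 CPM. SRSF6 libraries held 294, 282 and 144 CPM. SRSF7 libraries held 0 in 4 of 6, and 84.3 and 41.7 CPM in replicates 4 and 6, and a count of 0 allows up to 230 CPM in the smallest of the others, so their order against SRSF3 and SRSF6 is not shown. NXF1 libraries held 12.6, 21.4 and 64.4 CPM, all of it in exon 10. No SR protein was called in this region: the differences ran from -1.84 for SRSF4 to 1.54 for SRSF3, with adjusted p of 0.233 to 0.939 from limma.

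**Figure D5:**
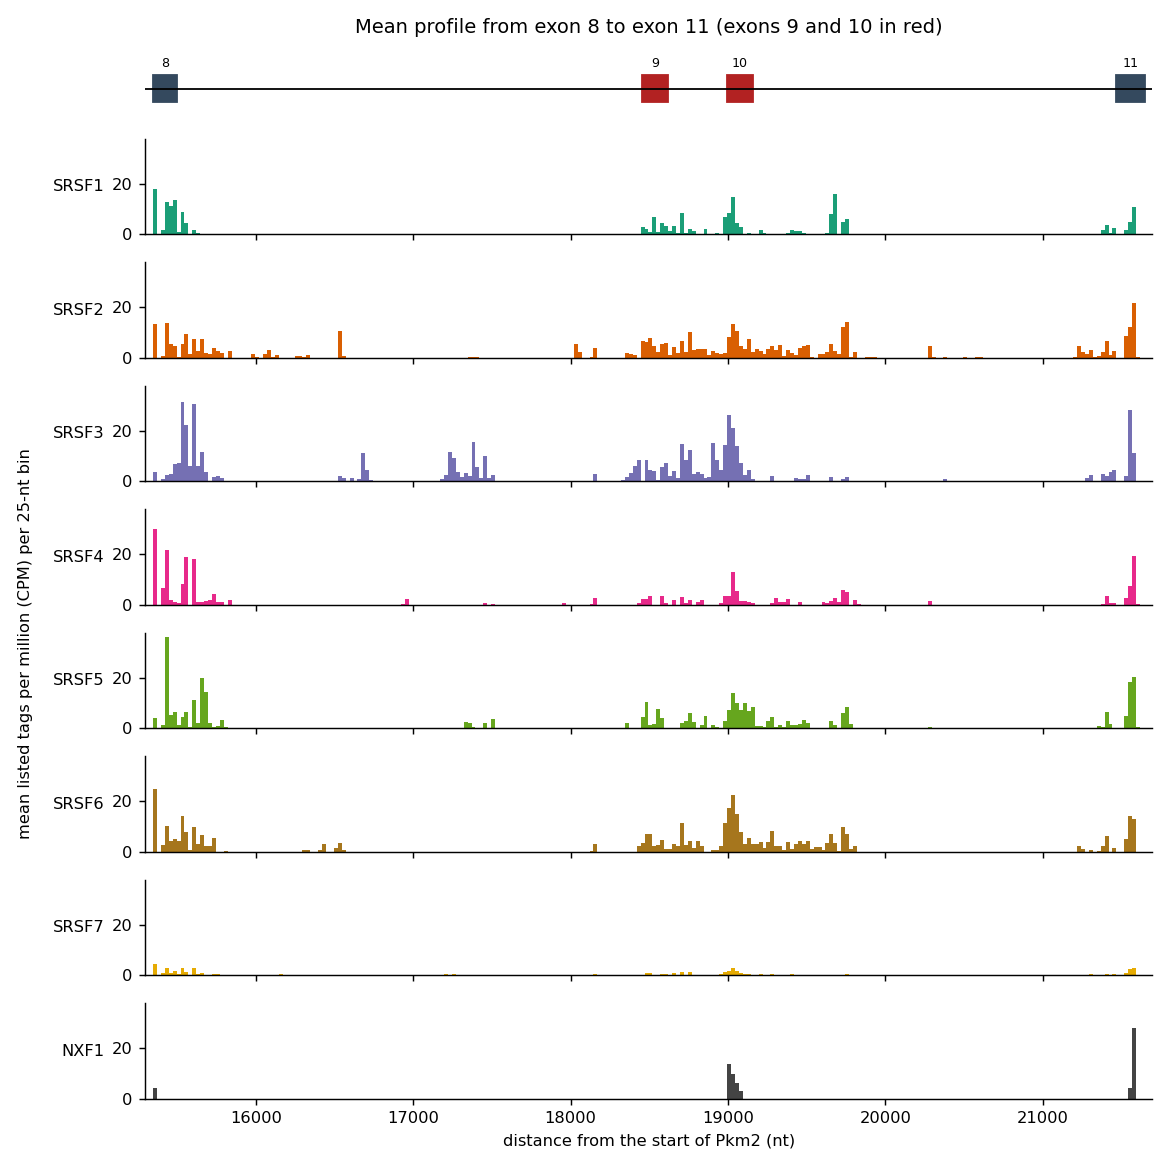
Mean CPM of each protein in bins from exon 8 to exon 11 (y axis, 1 panel per protein), by distance from the start of the gene in nt (x axis), with exons drawn as boxes on top and exons 9 and 10 in red. SR proteins cover both exclusive exons and intron 9 between them, whereas NXF1 shows bars at exons 8, 10 and 11, with 13 tags on exon 10 and 0 on exon 9.

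Both exclusive exons were touched. Exon 9 carried 917 tags in 16 SR libraries and exon 10 carried 1484 tags in 18 SR libraries and in all 3 NXF1 libraries. The NXF1 libraries had 0 tags on exon 9 and 3, 3 and 7 on exon 10, and a count of 0 in a library allows up to 3 tags by counting error alone. In GC content the exons stood at 56.3% and 62.9%, and they held 4 and 3 matches to CNTC and none to GAAGAA or GGAGA.

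The share of exon 10 among tags of both exons was above 46% in every SR library with at least 10 such tags. SRSF3 libraries stood at 78.8%, 66.5% and 68.5%, and SRSF6 libraries at 71.4%, 70.8% and 80.5%. SRSF2 libraries stood at 46.8%, 92.9% and 50.6%, the middle value from replicate 4 and the others from the libraries labelled SRSF2 replicates 2 and 5. The SRSF3 and SRSF6 libraries overlapped and lay inside the wide SRSF2 range.

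SRSF1 replicates 1 and 2 stood at 49.4% and 80.8%, and SRSF5 replicates 1, 2 and 4 at 100%, 61.2% and 46.5%. SRSF7 replicates 4 and 6 stood at 52.7% and 96.9%, and SRSF4 replicate 2 at 62.1%. The 6 proteins with at least 2 libraries differed from the rest by -6.99 to 6.31 percentage points, all with an adjusted p of 0.997 in the exact permutation test. The replicates of SRSF1, SRSF2, SRSF5 and SRSF7 each spread over more points than the proteins differed by. Of the 5 values above 80%, those of SRSF2 replicate 4, SRSF5 replicate 1 and SRSF7 replicate 6 rested on 14, 13 and 32 tags over both exons.

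The share of Pkm2 tags in the block of exons 9 and 10 with introns 8 to 10 was highest in SRSF2, at 54.4%, 29.5% and 53.8%, against a mean of 26.9% ± 12.1 (SD, n = 18). The high values are those of the libraries labelled SRSF2 replicates 2 and 5, and replicate 4 alone, at 29.5%, sat inside the range of the others. The difference of 18.99 points had p = 0.0241 in the exact permutation test and an adjusted p of 0.168 over 7 proteins. Without both of these libraries 1 SRSF2 library was left, and the difference was not tested.

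SRSF5 followed with 38.3% ± 9.80 (SD, n = 4), SRSF3 with 33.4% ± 5.25 (n = 3) and SRSF6 with 29.1% ± 2.40 (n = 3). SRSF1 stood at 20.8% ± 8.76 (n = 3), SRSF4 at 17.5% ± 16.4 (n = 3) and the 2 SRSF7 libraries at 21.5% and 7.91%. None was called, with adjusted p from 0.246 to 0.927 in the exact permutation test. The NXF1 libraries held 3.26%, 3.30% and 10.9% in the block.

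The introns around the exclusive exons were not touched alike. Intron 8 held 308, 265 and 147 CPM in SRSF3 libraries, and intron 9 held 132, 105 and 56.9 CPM. Intron 10 showed another order: SRSF3 libraries held 12.2, 62.2 and 15.9 CPM there, SRSF6 libraries 130, 113 and 57.1 CPM, and the libraries labelled SRSF2 replicates 2 and 5 held 316 and 224 CPM. In SRSF3 the intron before the exclusive exons thus carried more tags than the intron after them in every library, and in SRSF6 the reverse held in 2 of 3 libraries. These orders were read after the values were seen and were not tested.

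Smaller regions in these introns differed in which proteins they held. In intron 8, a region 1177 nt after exon 8 held 64 tags at a mean of 15.8 CPM in SRSF3 and at most 0.19 CPM in the other proteins. A region 1011 nt after exon 8 held 111 tags, with a mean of 11.5 CPM in SRSF2 and 5.72 CPM in SRSF6. In intron 10, the region that ends just before exon 11 (chr9:59525731-59525845) held 353 tags and reached all 7 SR proteins at means of 1.46 to 13.4 CPM, and the one before it (chr9:59525603-59525697) held 174 tags with a mean of 11.4 CPM in SRSF2, from the libraries labelled replicates 2 and 5 alone. None of these had enough tags to be tested. The other 6 regions of introns 8 and 10 with at least 15 tags held 15 to 93 tags each, at means of at most 5.08 CPM.

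The stretch that chose the gene, at the end of exon 8 and the start of intron 8 (chr9:59519798-59520224), held 2382 tags. It was listed in 0 of 3 NXF1 libraries. SRSF5 libraries held 40.1, 154, 145 and 130 CPM, SRSF3 libraries 186, 138 and 89.3 CPM and SRSF7 libraries 0 in 4 of 6 and 74.2 and 32.6 CPM in replicates 4 and 6. The 0 values again include small libraries, in which up to 230 CPM could go unlisted, and the difference of SRSF7 from the other 6 was -1.45 ± 0.55 (adjusted p = 0.0796 from limma), which did not pass.

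The 3′ end was shared by all proteins. The main region of exon 12 (chr9:59526732-59527059) held 139, 256 and 82.8 CPM in NXF1 libraries and 191, 143 and 119 CPM in SRSF3 libraries. The 6 SRSF7 libraries ran from 0 to 423 CPM with a median of 51.8, the highest from 7 tags in replicate 5. No SR protein was called there, with adjusted p from 0.158 to 0.981 from limma.

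Sequence around the tags differed between proteins in introns. The motif CNTC, with any base in the second place, was searched on the sense strand in the 21 nt around each position, and 21.3% of all intronic windows of the gene held it. SRSF3 tags had it in 65.0% ± 6.34 (SD, n = 3) of cases and SRSF7 tags in 55.9% and 58.3% (2 libraries). SRSF1 stood at 37.4% and 54.2% (2 libraries), SRSF6 at 34.8% ± 2.83 (n = 3), SRSF5 at 24.9% and 41.4% (2 libraries), SRSF4 at 32.8% (1 library) and SRSF2 at 24.3% ± 8.93 (n = 3). The SRSF3 and SRSF7 libraries were all above those of the other proteins, of which the SRSF1 value of 54.2% rests on 24 tags. The intron 1 region, rich in CNTC where printed, held 209 of 421, 501 of 1623 and 389 of 1006 intronic tags in SRSF3 libraries. In SRSF7 replicates 4 and 6 it held 297 of 1192 and 39 of 127. Its part in these shares was not tested. These are descriptions over libraries with at least 20 intronic tags, and windows that overlap share their bases.

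In exons the contrast was smaller. There 34.1% of windows held CNTC, and tags had it in 47.9% ± 4.03 (SD, n = 3) of cases for SRSF3. The share was 31.8% ± 9.08 (n = 3) for SRSF1 and 32.0% ± 3.87 (n = 3) for NXF1. SRSF5 (43.7% ± 13.9, n = 3, up to 59.5%) and SRSF7 (35.1% and 46.7%, 2 libraries) overlapped SRSF3. Means of SRSF2, SRSF4 and SRSF6 ran from 33.9% to 36.7%. The purine-rich GGAGA, in 6.73% of exonic windows, was beside 13.1% ± 6.40 of SRSF1 tags (n = 3), 9.78% ± 0.453 of SRSF6 tags (n = 3) and 4.199% ± 0.547 of SRSF3 tags (n = 3). GAAGAA was in 0.669% of exonic windows, too few to compare. A match to a motif is a description of the letters and does not mark a binding site.

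Tags fell on thymine more often than the gene's composition. In exons 21.4% of bases are thymine, and mean shares of tags at thymine ran from 33.7% ± 6.64 in SRSF4 (SD, n = 3) to 46.4% ± 1.89 in SRSF2 (n = 3). In introns 28.5% of bases are thymine, and the mean shares ran from 50.6% in SRSF1 (2 libraries) to 62.6% ± 11.9 in SRSF2 (n = 3). Ultraviolet light at this wavelength is known to join proteins to uridines best.

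Among the other genes tested, those whose log2 levels followed Pkm2 most closely over the 31 libraries were Rbm12 (Spearman rho 0.905), Maz (0.891), Hn1 (0.868), Ddb1 (0.867) and Bub3 (0.864). The median over 6026 genes was 0.495, and Pkm2 itself followed the number of listed tags of the library at 0.839. How much of the correlations between genes came with library size was not tested.

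The pathway around pyruvate kinase was looked at through a list of 23 genes of glycolysis, of which 17 were tested. Slc2a3, a neuronal-type glucose transporter, had the most tags (702 ± 953 CPM, SD, n = 28 SR libraries), followed by the glucose transporter Slc2a1 (214 ± 204) and the aldolase Aldoa (168 ± 199). For SRSF3, 3 of 17 genes were higher and 0 lower: Slc16a3, a lactate exporter, at 3.93 ± 0.84 (adjusted p = 0.00286), Aldoa at 2.96 ± 0.83 (adjusted p = 0.0185) and Slc2a1 at 2.33 ± 0.74 (adjusted p = 0.0356), all from limma. Over all genes 8.56% were called higher and 2.27% lower. The median of the 17 was 1.45, and that of all genes 0.80. Slc16a3 alone was called under each of the 3 other scalings.

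For SRSF1, Slc2a3 was higher by 2.96 ± 0.71 (adjusted p = 0.0170 from limma), also under the 3 other scalings. Slc16a3 was lower, at -3.27 ± 0.93 (adjusted p = 0.0475 from limma), a call kept only with totals of protein-coding genes. SRSF1 libraries held 1.78 ± 3.55 CPM (SD, n = 4) on Slc16a3, so its fitted value rests on libraries at or near 0. Over all genes 1.14% were higher and 1.43% lower. For SRSF5, 4 of 17 genes were lower, where 20.5% of all genes were, with a median of -1.61 against -1.28 over all genes: the isomerase Tpi1 (-3.57 ± 0.88, adjusted p = 0.00848), Slc2a3 (-3.34 ± 0.70, adjusted p = 0.00430), the lactate dehydrogenase Ldha (-2.34 ± 0.63, adjusted p = 0.0122) and the lactate carrier Slc16a1 (-2.12 ± 0.76, adjusted p = 0.0426), all from limma. Under the 3 other scalings 1 or 2 of these were called, and Pdk1, a kinase that curbs pyruvate dehydrogenase, was called higher. On Tpi1 the SRSF5 libraries held 1.59 ± 3.18 CPM (SD, n = 4), so its fitted value rests on libraries at or near 0. No gene of the list was called for SRSF2, SRSF4, SRSF6 or SRSF7, although Pdk1 was called lower for SRSF4 under the 3 other scalings.

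Of 8 genes known to act on the choice between exons 9 and 10, 7 were found in the annotation and 6 were tested, with Rbm4 not matched. Their levels over the 28 SR libraries were 965 ± 653 CPM for Hnrnpa2b1, 503 ± 1022 for Srsf3, 397 ± 319 for Ptbp2, 173 ± 197 for Ptbp1, 105 ± 89.1 for Hnrnpa1, 17.96 ± 22.6 for Nek2 and 8.28 ± 23.6 for Myc, which was not tested. SRSF3 libraries were higher on Srsf3 itself, at 5.20 ± 0.999 (adjusted p = 0.00117), and on Ptbp1, at 3.16 ± 0.99 (adjusted p = 0.0329), both from limma, where 8.56% of all genes were higher. The Srsf3 call was kept under the 3 other scalings and the Ptbp1 call under none. The SRSF3 line carries a tagged copy of Srsf3, and RNA of that copy and of the cell's own gene cannot be told apart. No gene of this list was called for another protein.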

How the data were processed

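iCLIP tags of SRSF1 to SRSF7, NXF1 and GFP-NLS in P19 cells were analysed from the deposited tables. Per the labels reads were base-called with CASAVA 1.4 and placed on mm9. The deposited values are a score per position, the number of tags with a sign for the strand, and the authors kept only positions that passed their filter in that library. How reads that map to several places were handled was not stated in the labels or methods used. The control exists here as 1 summed table and carries no replicates. Listed totals ran from 13038 to 4459523 tags, so counting error is large in the smallest libraries, and floors and CPM cover counting error only.

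Absolute scores on the gene's strand were summed over genes of GENCODE vM1, over the parts of Pkm2 and over regions made by joining the authors' clusters of the 8 proteins within 30 nt. Genes or regions with at least 42.1 CPM (10 tags in the median library) in at least 3 libraries and at least 15 tags in all were tested by limma voom (limma 3.58.1, R 4.3.3). Each SR protein was set against the mean of the other 6, and p-values were adjusted by Benjamini-Hochberg at 0.05. Shares of tags were compared by two-sided exact permutation tests over libraries with at least 20 Pkm2 tags, or 10 tags on exons 9 and 10, and adjusted over the proteins compared. Python 3.11.15, numpy 2.4.6, pandas 2.3.3, scipy 1.17.1 and matplotlib 3.10.9 were used. The planned count models were not used because the signed values are deposited as a score. The limma scripts were tested on simulated data.

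The gene, its parts and the lists of glycolysis genes, regulators of the exons and pluripotency markers were chosen with earlier results of these data known. Regions were named if among the 5 with the most tags, or if they overlapped exon 9, exon 10 or introns 8 to 10 with at least 15 tags, and others are marked in the text. The libraries were described as biological replicates in the study, and the labels do not name their cultures. Same-numbered libraries did not deviate together. Sequences come from the mm9 genome. Alternatives were 3 other scalings, no CPM minimum, limma-trend, a replicate block, leaving out libraries, and a minimum of 50000 listed tags. Comparisons within a run year and shares in libraries of at least 50000 or 400000 tags were added after the data were seen.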

Additional observations from a re-analysis of the deposited data

Results flagged for a closer look

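Of 60 Dixon tests of the highest or lowest library of a group, 8 passed the 95% value. A rate of 1 in 20 by chance holds for values of like precision. These libraries differ greatly in size and often stand at 0, so the number is not compared with chance. In 2 regions of exon 6, SRSF1 replicate 4 stood at 0.0 CPM, with the nearest other SRSF1 library at 45.5 CPM in the region at the exon's start and at 85.3 CPM in the larger one. This library held no Pkm2 tag at all, and a count of 0 in it allows up to 201 CPM. In the region of intron 8 that starts 1714 nt after exon 8, SRSF2 replicate 2 stood at 3.77 CPM (nearest 0.931), SRSF5 replicate 4 at 25.9 CPM (nearest 1.59) and SRSF7 replicate 4 at 6.73 CPM (nearest 0). In the region of exon 1 and the start of intron 1, SRSF5 replicate 3 stood at 171 CPM from 13 tags, with the nearest at 54.1 CPM. In exon 12, SRSF7 replicate 5 stood at 423 CPM in the main region (nearest 153), and SRSF7 replicate 6 at 37.2 CPM in the last region (nearest 7.85). The 423 CPM is 7 tags among 16556 listed, and the 153 CPM is 2 tags among 13038, so counting error is large in both.

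The summed NXF1 table, which no comparison used, lists 7 tags in intron 9, whereas the summed control table lists 0 and the 3 single NXF1 libraries list none.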

How the results depend on the processing

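Pkm2 as a gene was not called for any SR protein under any alternative run, nor was the region of exons 9 and 10. The larger intronic share of SRSF3 kept its direction under every alternative run and lost its call without SRSF3 replicate 1 or 2. The regions of intron 1 and intron 8 say nothing on stability for SRSF3, since its libraries set their entry. The lower SRSF1 call in intron 1 rests on the same entry. The planned count models were not run, since the values are a signed score. What caused the changes below was not tested. Depth limits most values, as libraries under 50000 listed tags cannot list a gene at a low level.

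The gene's difference in level (log2) changed sign in these cases. With at least 50000 listed tags it was 0.032 for SRSF1, 0.62 for SRSF2 and -0.42 for SRSF4, and within the later run year it was -0.29 for SRSF4. For SRSF5, which lay at 0, it was 1.07 with trimmed-mean scaling, 1.15 with median-ratio scaling, 1.12 with totals of protein-coding genes, 0.029 with no filter beyond 15 tags, 0.25 without SRSF2 replicates 2 and 5 and 0.53 within the earlier run year. Leaving out 1 library gave -1.46 to 0.43 for SRSF1, -1.81 to 0.13 for SRSF2, -0.39 to 0.69 for SRSF4 and -0.29 to 0.22 for SRSF5.

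For the region of exons 9 and 10, SRSF1 was at -0.70 with trimmed-mean and -0.55 with median-ratio scaling, SRSF2 at -0.46 without its replicates 2 and 5, and SRSF5 at 0.16 with median-ratio scaling, 0.79 with totals of protein-coding genes and 0.11 within the earlier run year. Leaving out 1 library gave -0.093 to 0.80 for SRSF2 and -0.95 to 1.01 for SRSF5.

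The number of Pkm2 regions called moved as follows. SRSF1 had 0 higher with trimmed-mean scaling, median-ratio scaling, no filter and limma-trend, 1 higher without SRSF2 replicates 2 and 5, with at least 50000 tags and within the later run year, and 0 lower with no filter. SRSF2 had 1 lower with totals of protein-coding genes. SRSF3 had 0 lower with trimmed-mean and median-ratio scaling, and 2 to 4 lower and 2 to 3 higher in the other alternatives. With no filter its 3 lower calls were lost, and the 2 lower regions were others. SRSF5 had 4 higher with totals of protein-coding genes, 0 lower with median-ratio scaling and no filter, and 2 lower with limma-trend, without SRSF2 replicates 2 and 5 and with at least 50000 tags. SRSF6 had 0 higher with totals of protein-coding genes and no filter, and 1 lower with trimmed-mean scaling, median-ratio scaling, limma-trend, without SRSF2 replicates 2 and 5 and with at least 50000 tags. SRSF7 had 1 higher with no filter and 1 lower with totals of protein-coding genes and limma-trend. Leaving out 1 library gave 0 to 3 higher and 0 to 1 lower for SRSF1, 0 to 1 lower for SRSF2, 1 to 3 higher and 0 to 3 lower for SRSF3, 1 to 2 lower for SRSF5, and 0 to 2 higher and 0 to 1 lower for SRSF6.

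Shares are differences in percentage points. The intronic share was 2.32 for SRSF5 with 2.5 times the tag minimum, and 2.51 for SRSF6 and 2.27 for SRSF7 with each position counted once. Leaving out 1 library gave 28.05 to 31.5 for SRSF3, with adjusted p of 0.0368 to 0.111 in the exact permutation test, and -8.78 to 3.66 for SRSF5. The exon 10 share was -1.77 for SRSF3 with each position counted once and -0.803 without SRSF2 replicates 2 and 5, and for SRSF5 it was -13.5 with 2.5 times the tag minimum, -3.36 without SRSF2 replicates 2 and 5 and -12.4 with at least 400000 tags. Leaving out 1 library gave -21.7 to 1.31 for SRSF2, -1.25 to 4.91 for SRSF3 and -15.3 to 11.4 for SRSF5. The share of exons 9 and 10 with introns 8 to 10 was -1.05 for SRSF3 with at least 400000 tags, and for SRSF6 it was 3.93 with each position counted once, 2.34 without SRSF2 replicates 2 and 5 and -2.07 to 0.205 without 1 library.

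Replicate numbers did not pair the libraries: of 91 same-numbered pairs, 14 had a correlation of deviations above 0.1, the median was -0.0039, and 7 of 31 libraries correlated best with one of their own number. With a replicate block, the gene's difference for SRSF5 was 0.10, SRSF6 had 1 lower region, the lower SRSF3 call in exon 5 was lost, and the intronic share of SRSF3 had an adjusted p of 0.0467 in the exact permutation test.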

Other observations

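The authors' summed tables list positions that the single libraries do not. The intronic share of Pkm2 tags in them was 25.6% for SRSF1, 54.0% for SRSF2, 57.0% for SRSF3, 27.7% for SRSF4, 45.3% for SRSF5, 34.6% for SRSF6 and 14.8% for SRSF7, whose summed table lacks replicate 4. For NXF1 it was 2.22%, with 316 Pkm2 tags in the summed table against 247 over the single libraries. Of these 316, 140 lay on exon 12 and 18 on exon 10. In every SR protein but SRSF7, the summed share was above that of each single library of the protein with at least 20 Pkm2 tags.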
